A study of Mus musculus with 14 samples.

Results

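A set of 10 matricellular and fibroblast identity genes was followed in fibroblasts that received reprogramming factors: Fn1, Postn, Tnc, Sparc, Dpt, Svep1, Ptn, Thy1, Vim and S100a4. They were chosen by name, with earlier results of these arrays known. The aim was to describe their loss with SKO and their retention or further loss with MEF2C and HDAC7. They make up 10 of the 19935 genes measured. Where a gene had several probe sets, the one with the highest mean over the 14 arrays was used, and each of the 10 had a single one. The cells were mouse embryonic fibroblasts (MEFs) of the ICR strain, kept in mouse embryonic stem cell medium. Transduction was with SKO plus an empty Flag vector (SKO+Flag), SKO plus HDAC7 (SKO+HDAC7), SKO plus MEF2C (SKO+MEF2C), or GFP, and lysis was on day 6 or day 10. All groups but GFP therefore carried SKO, which the labels do not spell out and which commonly stands for Sox2, Klf4 and Oct4. There were 2 arrays for each SKO group on each day, numbered as experiments 1 and 2 in the labels, and 1 GFP array on each day. The labels do not say that the experiments were separate cultures, so the p-values reflect array-to-array spread that may be technical alone.

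Matricellular proteins are secreted into the extracellular matrix and act there mainly on how cells attach, spread and receive growth signals, rather than as structural fibres. Fibroblasts are their main source in connective tissue, and wound repair and fibrosis raise many of them. In the reprogramming of fibroblasts toward pluripotency, an early step is the loss of mesenchymal and the gain of epithelial gene expression. MEF2C is a DNA-binding transcription factor best known from muscle. HDAC7, a histone deacetylase of class IIa, can bind MEF2 factors and repress their targets.

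The label of fibroblasts was checked against marker genes. All 6 fibroblast markers (Col1a1, Col1a2, Pdgfrb, Pdgfra, Lum and Dcn) lay above the array median on both GFP arrays, with a mean log2 level of 9.91 at day 6 and 10.83 at day 10, and 5 or 6 of them did so on every SKO array, with a mean between 8.77 and 9.04. The 6 pluripotency markers (Nanog, Zfp42, Esrrb, Utf1, Dppa5a and Tdgf1) were below the array median on all 14 arrays. Of 5 measured macrophage and blood markers and of 5 endothelial markers, at most 1 exceeded it on any array, and Ptprc, Adgre1, Csf1r, Lyz2, Pecam1, Cdh5, Kdr and Emcn did so on none. The exceptions were the endothelial marker Tek, at 5.13 to 5.14 on the GFP arrays and 6.82 to 9.21 on the SKO arrays, and the macrophage marker Cd68, at 5.44 to 6.06 and 6.06 to 7.31, both above the array median on all 12 SKO arrays. Their part in the members' differences was not tested. Of 4 measured neural and glial markers, 2 or 3 exceeded the array median, and Gfap did on none. The 2 arrays of a group correlated at 0.995 to 0.997 over all probe sets. In these bulk samples, fewer cells of a type and less RNA per cell cannot be told apart.

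Some upstream sequences are shown because MEF2C binds DNA: those of 3 members that rose with MEF2C, and that of Ptn, which did not. RefSeq promoters of the GRCm38.p6 build were matched for 8 members (Postn, Dpt, Svep1, Ptn, Tnc, Sparc, Vim and S100a4), and Fn1 and Thy1 were not matched. Each sequence below holds the 110 bases before a transcription start, read 5′ to 3′ on the gene's strand, with TATAAA in capitals on either strand. Postn (its second start), Svep1 and S100a4 were called higher in SKO+MEF2C at day 10, and Ptn was called higher in SKO+HDAC7. Not shown are Tnc, also called higher in SKO+MEF2C, and the first start of Postn, which hold no TATAAA in these 110 bases. Also not shown are Vim, which holds TATAAA, and Dpt and Sparc, which do not, none of them called with MEF2C. A link of TATAAA with the MEF2C differences was not tested.
Postn, chr3:54360997-54361106, plus strand: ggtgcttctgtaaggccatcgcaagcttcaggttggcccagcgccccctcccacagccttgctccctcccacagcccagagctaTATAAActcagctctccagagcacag
Svep1, chr4:58206597-58206706, minus strand: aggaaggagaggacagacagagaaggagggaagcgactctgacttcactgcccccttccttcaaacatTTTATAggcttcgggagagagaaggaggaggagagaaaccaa
S100a4, chr3:90603660-90603769, plus strand: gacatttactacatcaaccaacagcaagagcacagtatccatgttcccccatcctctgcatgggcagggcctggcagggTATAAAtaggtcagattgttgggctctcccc
Ptn, chr6:36810180-36810289, minus strand: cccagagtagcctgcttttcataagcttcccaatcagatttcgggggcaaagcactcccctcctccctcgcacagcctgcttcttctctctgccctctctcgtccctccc

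In windows of 250 bases before each start, searched on both strands, TATAAA was found in 6 of the 10 windows of the 8 matched members (Postn and Tnc have 2 starts each), which belong to 5 members, and in 12.4% of 32851 RefSeq windows of that length. The match began 26 bases before the second start of Postn, 31 before that of S100a4 and 32 before that of Vim. That of Svep1 lay farther away, at 42 bases, and that of Tnc at 126 and 205 bases before its 2 starts. The 2 windows of Tnc overlap and hold the same match, which is thus counted in both. The MEF2 element was found in 2.92% of all windows, the CArG box, which serum response factor binds, in 1.47%, and TGANTCA, which includes the AP-1 site, in 6.75%. None of these 3 was found in the 10 windows of the members. A MEF2 element can hold the letters TATAAA, so the first motif can overlap with it. These letters are a description of the windows, and where the factors bind was not measured.

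**Figure D1:**
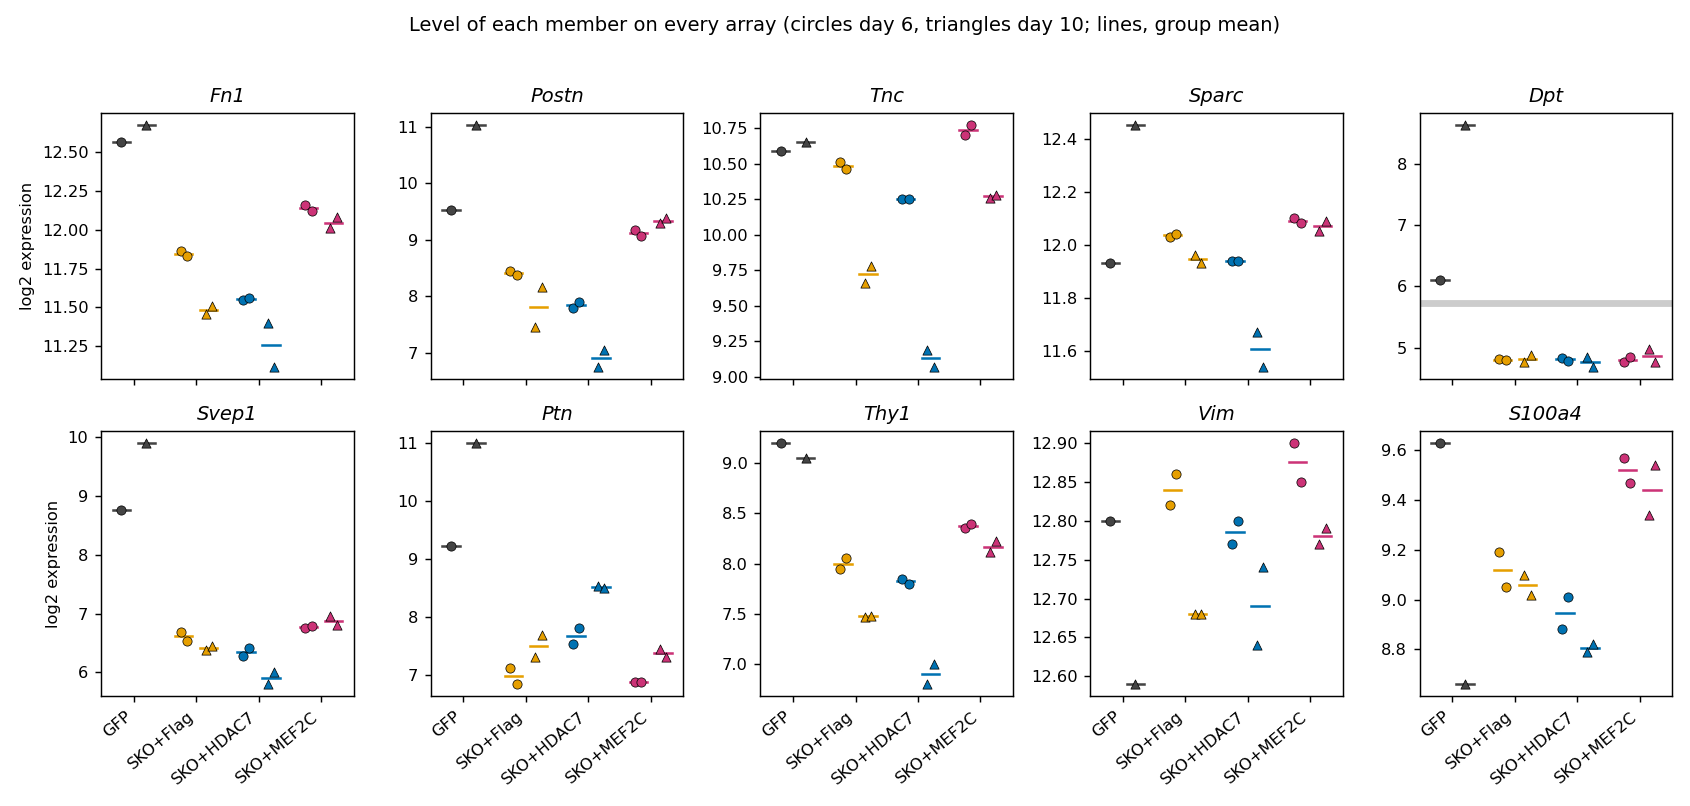
Each panel plots the log2 expression of 1 gene (vertical axis, its own scale) on all 14 arrays by vector, with circles for day 6, triangles for day 10 and a line at each group mean. The grey band in the Dpt panel is the range of the array medians, 5.68 to 5.76. For 7 of the 10 genes, and 2.49% of all genes, the SKO+MEF2C arrays lie above and the SKO+HDAC7 arrays below the SKO+Flag arrays at both days, and Ptn is highest among the SKO groups in SKO+HDAC7.

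The first comparison set the SKO groups against GFP. At day 10, Postn was 9.35-fold, Svep1 11.2-fold and Ptn 11.3-fold lower in SKO+Flag than on the GFP array, and Dpt was below the array median there. Thy1 was 2.98-fold, Fn1 2.27-fold, Tnc 1.91-fold and Sparc 1.42-fold lower, and Vim and S100a4 were not lower. The genes were listed for this loss, so these differences from GFP are a description without a test, against 1 GFP array per day. In SKO+Flag, 5 of the 10 genes were lower than GFP by at least 1 on the log2 scale at day 6, where 1.06% of all genes were, and 6 were at day 10, where 2.23% were. In SKO+HDAC7 there were 6 such genes at day 6 (1.42% of all genes) and 7 at day 10 (2.77%). In SKO+MEF2C there were 3 at day 6 (0.848%) and 4 at day 10 (1.63%). The median difference of the 10 genes from GFP was -0.91 at day 6 and -1.38 at day 10 in SKO+Flag, against -0.03 over all genes on both days. It was -1.15 and -1.84 in SKO+HDAC7, and -0.41 and -0.76 in SKO+MEF2C. All of these share the 1 GFP array of their day.

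The GFP arrays themselves differed between the days for some of these genes. From the day 6 to the day 10 GFP array, the log2 level of Dpt differed by 2.52, Ptn by 1.78, Postn by 1.51, Svep1 by 1.15 and Sparc by 0.52, and that of S100a4 by -0.97. Thy1, Fn1, Tnc and Vim differed by -0.15, 0.11, 0.07 and -0.21. With 1 GFP array a day, a change with time in these cells and the difference between 2 arrays cannot be told apart.

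**Figure D2:**
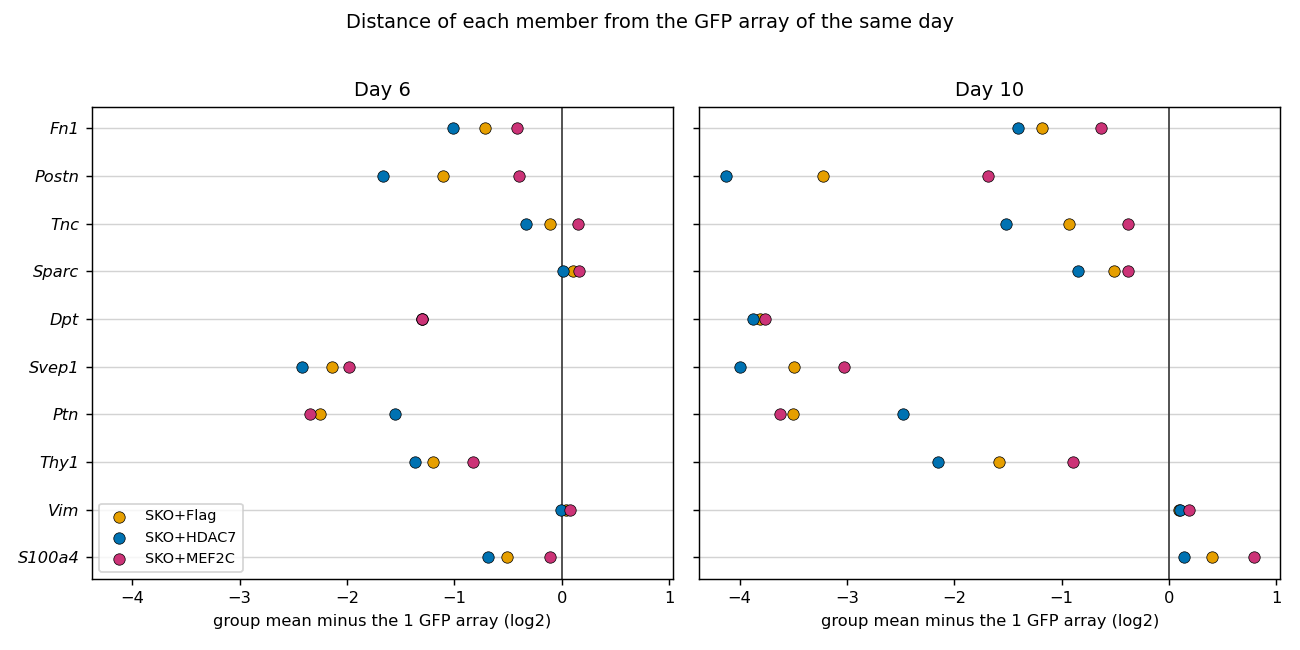
The horizontal axis is the group mean minus the GFP array of the same day on the log2 scale, for SKO+Flag, SKO+HDAC7 and SKO+MEF2C at day 6 (left) and day 10 (right), with the GFP array at the line at 0. Postn in SKO+HDAC7 lies farthest out, at -4.13 on day 10, while Vim lies between -0.01 and 0.19 in every group and S100a4 lies above 0 on day 10.

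The members were chosen with earlier results of the comparisons between SKO groups known, too. Counts, orders of the groups and p-values of the members in them are therefore a description of these genes and no independent evidence, and nothing is read from a count beside its share of all genes.

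The second comparison asked what HDAC7 added to SKO. At day 10, Thy1, Postn, Svep1, Tnc and Sparc fell 1.27- to 1.88-fold below SKO+Flag, and Ptn rose 2.02-fold (limma, adjusted p from 0.0003 to 0.012). These were 5 genes lower, where 3.95% of all genes were called lower, and 1 higher, where 3.33% were. With each array centred on its median, 4.29% and 2.33% of all genes were called lower and higher, and the calls of the 10 genes stayed. At day 6, Ptn rose, where 1.82% of all genes were called higher, and no member was called lower by limma, where 2.76% of all genes were (3.55% lower and 1.18% higher after median centring). At an unadjusted p under 0.05, 5 members and 10.1% of all genes were lower. The median of the 10 genes was -0.18 at day 6 and -0.30 at day 10, against 0.01 and 0.02 over all genes. No change of the HDAC7 difference between the days was called among them by limma (0.125% of all genes were called), and 3 of them had an unadjusted p under 0.05, as had 11.9% of all genes.

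The third comparison asked what MEF2C added. At day 10, Thy1, Postn, Fn1, Svep1, Tnc and S100a4 rose 1.31- to 2.90-fold above SKO+Flag (limma, adjusted p from 0.00027 to 0.019). They were 6 of the 10 genes, where 4% of all genes were called higher, and no member was called lower, where 3% of all genes were. At an unadjusted p under 0.05 no member and 7.53% of all genes were lower. At day 6, Thy1 and S100a4 rose, where 1.33% of all genes were called higher, and limma called none lower, where 1.77% were. At an unadjusted p under 0.05, 5 members and 6.63% of all genes were higher at day 6, and no member and 6.99% were lower. The median of the 10 genes was 0.21 at day 6 and 0.42 at day 10, against 0.00 and 0.02 over all genes. Limma called none of the changes of the MEF2C difference between the days (0.0853% of all genes were called), and 5 had an unadjusted p under 0.05, as had 6.71% of all genes. The HDAC7 and MEF2C differences share the SKO+Flag arrays.

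**Figure D3:**
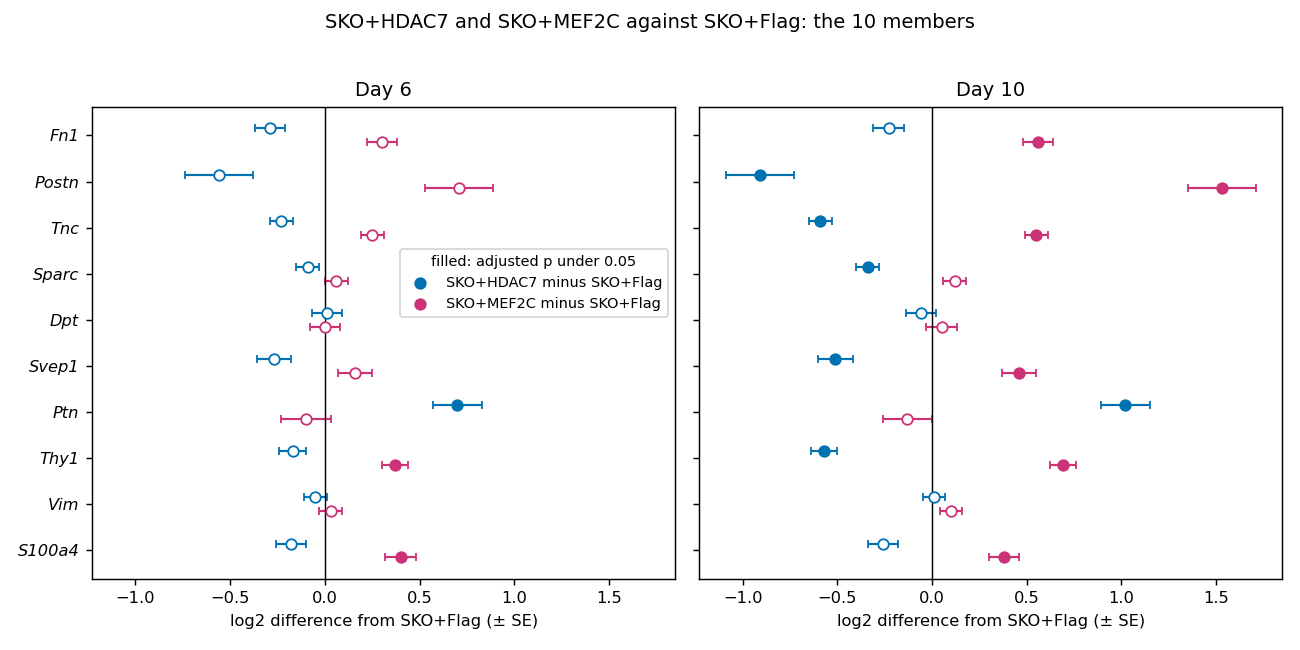
The horizontal axis is the log2 difference from SKO+Flag with its standard error (SE) for SKO+HDAC7 and SKO+MEF2C at day 6 (left) and day 10 (right), and filled points have an adjusted p under 0.05. At day 10, SKO+MEF2C points run from -0.13 for Ptn to 1.53 for Postn and SKO+HDAC7 points from -0.91 for Postn to 1.02 for Ptn.

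SKO+HDAC7 and SKO+MEF2C were also compared directly, without the SKO+Flag arrays in the contrast. At day 10, Postn was 5.44-fold, Thy1 2.40-fold, Tnc 2.21-fold, Svep1 1.96-fold, Fn1 1.72-fold, S100a4 1.56-fold and Sparc 1.38-fold lower in SKO+HDAC7, and Ptn was 2.21-fold higher (limma, adjusted p from 6.2e-07 to 0.00029). These were 7 genes lower, where 8.55% of all genes were, and 1 higher, where 7.46% were. At day 6, limma called the same genes except Sparc, 6 lower (6.98% of all genes) and Ptn higher (5.68%), with folds of 1.35 to 2.42. For Dpt and Vim at day 10 the difference was -0.11 and -0.09, with 95% confidence intervals from -0.29 to 0.08 and from -0.22 to 0.04.

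Fibronectin (Fn1) is a large matrix glycoprotein that integrins bind and that helps to assemble other matrix proteins. Its log2 level was 12.56 on the day 6 and 12.67 on the day 10 GFP array, 11.86 and 11.83 in SKO+Flag at day 6, 11.46 and 11.51 at day 10, 11.55 and 11.56 in SKO+HDAC7 at day 6, 11.40 and 11.12 at day 10, and 12.16 and 12.12 in SKO+MEF2C at day 6 and 12.01 and 12.08 at day 10. All 12 SKO arrays were below the GFP array of their day, and no 2 SKO groups of a day overlapped. The difference of SKO+Flag from GFP was -0.72 (SE 0.10) at day 6 and -1.18 (SE 0.10) at day 10. With MEF2C, Fn1 rose by 0.56 (SE 0.08, adjusted p = 0.002) at day 10, and the difference of 0.30 at day 6 was not called (adjusted p = 0.091). The HDAC7 difference was -0.29 at day 6 (adjusted p = 0.077) and -0.23 at day 10 (adjusted p = 0.15), so it was not called. It rested on which SKO+HDAC7 array was kept: without experiment 1 of day 10 it was -0.37 and was called (adjusted p = 0.022), and without experiment 2 it was -0.09 (adjusted p = 0.66).

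Periostin (Postn) is a matricellular protein that binds integrins and collagen and is abundant in activated fibroblasts. Among the 10 genes it differed most between the SKO groups. Its log2 level on the GFP arrays was 9.52 at day 6 and 11.03 at day 10. SKO+Flag gave 8.45 and 8.38 at day 6 and 7.45 and 8.16 at day 10, the most discordant pair of arrays for this gene. SKO+HDAC7 gave 7.79 and 7.90, then 6.75 and 7.04. SKO+MEF2C gave 9.18 and 9.06, then 9.29 and 9.39. The order SKO+MEF2C, SKO+Flag, SKO+HDAC7 held on both days without overlap. The difference of SKO+Flag from GFP was -1.11 at day 6 and -3.22 at day 10 (SE 0.22 for each), and from day 6 to day 10 SKO+Flag itself differed by -0.61 and GFP by 1.51.

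At day 10 Postn rose with MEF2C by 1.53 (SE 0.18, adjusted p = 0.00048), which was 2.90-fold. It fell by 0.91 with HDAC7 (SE 0.18, adjusted p = 0.012), but without experiment 1 of SKO+HDAC7 the difference was -0.76 (adjusted p = 0.1), and without experiment 2 of SKO+Flag it was -0.55, still called (adjusted p = 0.018). In a fit to the compared groups alone the HDAC7 call was also lost (adjusted p = 0.14). At day 6 the differences were 0.71 for MEF2C (adjusted p = 0.068) and -0.56 for HDAC7 (adjusted p = 0.11), neither called. In the compared groups alone both were called (adjusted p = 0.011 and 0.021), and that of MEF2C was called in 6 of 13 alternatives in all. The change of the MEF2C difference from day 6 to day 10 was 0.83 (SE 0.26, adjusted p = 0.46). It rested on the SKO+Flag arrays of day 10: without experiment 2, the array at 8.16, it was 1.18 and was called (adjusted p = 0.016), and without experiment 1 it was 0.47 (adjusted p = 0.55).

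Tenascin C (Tnc) is a matricellular glycoprotein that loosens cell attachment and is prominent in embryonic mesenchyme and in wounds. On the GFP arrays it was at 10.59 and 10.65. In SKO+Flag it was 10.51 and 10.46 at day 6 and 9.66 and 9.78 at day 10, in SKO+HDAC7 10.25 and 10.25, then 9.19 and 9.07, and in SKO+MEF2C 10.70 and 10.77, then 10.26 and 10.28. At day 6 the SKO+MEF2C arrays exceeded the GFP array, and at day 10 all 6 SKO arrays were below it. The SKO+Flag difference from GFP was -0.11 (SE 0.08) at day 6 and -0.93 (SE 0.08) at day 10. At day 10 Tnc fell by 0.59 with HDAC7 (SE 0.06, adjusted p = 0.0003) and rose by 0.55 with MEF2C (SE 0.06, adjusted p = 0.00046). At day 6 the differences of -0.23 and 0.25 were not called (adjusted p = 0.076 and 0.068).

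SPARC is a matricellular protein that binds collagen and calcium. Sparc was at 11.93 on the day 6 and 12.45 on the day 10 GFP array, and the SKO arrays of day 6 lay slightly above the former, at 11.94 to 12.10. At day 10 SKO+Flag gave 11.96 and 11.93, SKO+HDAC7 11.67 and 11.54, and SKO+MEF2C 12.05 and 12.09, all below GFP. The SKO+Flag difference from GFP was 0.10 at day 6 and -0.51 at day 10 (SE 0.07 for each), and GFP itself differed by 0.52 between the days. Sparc fell by 0.34 with HDAC7 at day 10 (SE 0.06, adjusted p = 0.0051). The call was lost without experiment 2 of SKO+HDAC7 (-0.28, adjusted p = 0.051) and in the compared groups alone (adjusted p = 0.09). The MEF2C difference at day 10 was 0.12 (95% confidence interval from -0.01 to 0.26, adjusted p = 0.3).

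Dermatopontin (Dpt) is a small matrix protein that binds decorin and promotes collagen fibril assembly. It was at 6.11 and 8.63 on the GFP arrays. On the 12 SKO arrays it lay between 4.69 and 4.98, under the array median in each, so it was not shown above background there and its distance from GFP is a lower bound. The SKO+Flag difference from GFP was -1.30 at day 6 and -3.81 at day 10 (SE 0.10 for each), with the same or nearly the same values in SKO+HDAC7 (-1.30 and -3.87) and SKO+MEF2C (-1.30 and -3.76). The SKO groups overlapped in every comparison, with all differences from SKO+Flag within 0.1 of 0. Whether HDAC7 or MEF2C moved it below that level cannot be read from these arrays.

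SVEP1 is a large secreted adhesion protein of mesenchymal cells that integrins bind. Svep1 was at 8.76 and 9.90 on the GFP arrays. SKO+Flag gave 6.69 and 6.54 at day 6 and 6.38 and 6.44 at day 10, SKO+HDAC7 6.27 and 6.41, then 5.80 and 6.01, and SKO+MEF2C 6.76 and 6.79, then 6.95 and 6.80. Every SKO array was more than 1 log2 unit below the GFP array of its day, with a SKO+Flag difference of -2.14 at day 6 and -3.49 at day 10 (SE 0.11 for each). At day 10 Svep1 fell by 0.51 with HDAC7 (SE 0.09, adjusted p = 0.0056) and rose by 0.46 with MEF2C (SE 0.09, adjusted p = 0.01). The difference from GFP at day 10 was -4.00 in SKO+HDAC7 and -3.03 in SKO+MEF2C. The SKO+HDAC7 arrays of day 10, at 5.80 and 6.01, were just above their array medians of 5.74 and 5.72. The -4.00 and the HDAC7 fall of 0.51 may thus be understated. At day 6 the differences from SKO+Flag, -0.27 with HDAC7 and 0.16 with MEF2C, were not called (adjusted p = 0.12 and 0.5).

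The day 10 calls of Svep1 did not hold in every alternative. The HDAC7 difference was -0.41 without experiment 1 of SKO+HDAC7 (adjusted p = 0.056), and the MEF2C difference was 0.43 without experiment 1 of SKO+Flag (adjusted p = 0.051) and 0.38 without experiment 1 of SKO+MEF2C (adjusted p = 0.1). In the compared groups alone both calls were lost as well, with adjusted p = 0.055 for HDAC7 and 0.054 for MEF2C. In the direct comparison at day 6, SKO+HDAC7 differed from SKO+MEF2C by -0.43 (adjusted p = 0.0092). That call was lost without experiment 1 of SKO+HDAC7 (-0.36, adjusted p = 0.084) or experiment 2 of SKO+MEF2C (-0.42, adjusted p = 0.065).

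Pleiotrophin (Ptn) is a secreted heparin-binding growth factor that signals through receptors such as Ptprz1 and syndecans. It differed from the other genes in its direction. It was at 9.22 and 11 on the GFP arrays, 7.12 and 6.84 in SKO+Flag at day 6 and 7.31 and 7.69 at day 10. In SKO+HDAC7 it was 7.54 and 7.81, then 8.54 and 8.50, and in SKO+MEF2C 6.87 and 6.88, then 7.45 and 7.30. The SKO+HDAC7 arrays exceeded those of SKO+Flag on both days, and those of SKO+MEF2C overlapped with SKO+Flag on both. All were far below GFP, with a SKO+Flag difference of -2.25 at day 6 and -3.50 at day 10 (SE 0.16 for each).

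With HDAC7, Ptn rose by 0.70 at day 6 (SE 0.13, adjusted p = 0.014) and by 1.02 at day 10 (SE 0.13, adjusted p = 0.00086). At day 6 the call was lost without experiment 2 of SKO+Flag (0.56, adjusted p = 0.097) or of SKO+HDAC7 (0.57, adjusted p = 0.089). SKO+HDAC7 thus stood at -2.48 from GFP at day 10, against -3.50 for SKO+Flag and -3.62 for SKO+MEF2C. The MEF2C difference was -0.10 at day 6 (95% confidence interval from -0.39 to 0.19, adjusted p = 0.84) and -0.13 at day 10 (from -0.42 to 0.16, adjusted p = 0.72). Its sign turned to 0.04 without experiment 1 of SKO+Flag at day 6 and to 0.06 without experiment 2 of SKO+Flag at day 10.

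Thy1 (CD90) is a glycolipid-anchored surface protein, used to sort fibroblasts, whose loss is an early mark of reprogramming. It was at 9.20 and 9.05 on the GFP arrays. SKO+Flag gave 7.95 and 8.05 at day 6 and 7.47 and 7.48 at day 10, SKO+HDAC7 7.85 and 7.80, then 6.80 and 7.0, and SKO+MEF2C 8.35 and 8.39, then 8.11 and 8.22. The SKO groups did not overlap on either day, and all lay below GFP. The SKO+Flag difference from GFP was -1.20 at day 6 and -1.58 at day 10 (SE 0.09 for each), and that of SKO+MEF2C was -0.83 and -0.89. Thy1 fell by 0.57 with HDAC7 at day 10 (SE 0.07, adjusted p = 0.00087), a 1.49-fold change, and the difference of -0.17 at day 6 was not called (adjusted p = 0.23).

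With MEF2C, Thy1 rose by 0.37 at day 6 (SE 0.07, adjusted p = 0.024) and by 0.69 at day 10 (SE 0.07, adjusted p = 0.00027). The day 6 call was lost without either array of SKO+Flag at that day (0.32 and 0.42, adjusted p = 0.16 and 0.063) or either of SKO+MEF2C (0.39 and 0.35, adjusted p = 0.12 and 0.16), and in the compared groups alone (adjusted p = 0.06). The day 10 calls of Thy1 with HDAC7 and with MEF2C held in each alternative.

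Vimentin (Vim) is the intermediate filament protein of mesenchymal cells. It was at 12.80 on the day 6 and 12.59 on the day 10 GFP array, and the 12 SKO arrays lay between 12.64 and 12.90. Its differences from GFP were between -0.01 and 0.19 in the 3 SKO groups on both days. With HDAC7 at day 10 the difference from SKO+Flag lay within 0.1 of 0, with a 95% confidence interval from -0.12 to 0.13, and with MEF2C it was 0.10, with an interval from -0.03 to 0.22 (adjusted p = 0.43). Vim was listed by name, and no SKO group mean was lower than GFP by more than 0.01.

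S100a4, also called fibroblast-specific protein, is a calcium-binding protein linked to cell motility. It was at 9.63 on the day 6 and 8.66 on the day 10 GFP array. SKO+Flag gave 9.19 and 9.05, then 9.10 and 9.02, SKO+HDAC7 8.88 and 9.01, then 8.79 and 8.82, and SKO+MEF2C 9.57 and 9.47, then 9.34 and 9.54. All 6 SKO arrays of day 6 were below the GFP array, and all 6 of day 10 were above it. The SKO+Flag difference from GFP was -0.51 at day 6 and 0.40 at day 10 (SE 0.10 for each). With MEF2C, S100a4 rose by 0.40 at day 6 (SE 0.08, adjusted p = 0.029) and by 0.38 at day 10 (SE 0.08, adjusted p = 0.019), and the HDAC7 differences of -0.18 and -0.26 were not called (adjusted p = 0.27 and 0.1).

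The MEF2C calls of S100a4 did not hold in every alternative. Without 1 array the day 6 difference ran from 0.33 to 0.46, on both sides of 0.40. Its SE was then 0.10, against 0.08 with all arrays. At day 6 the call was lost without experiment 1 (0.46, adjusted p = 0.07) or 2 (0.33, adjusted p = 0.17) of SKO+Flag, and without experiment 1 (0.35, adjusted p = 0.21) or 2 (0.45, adjusted p = 0.095) of SKO+MEF2C. At day 10 it was lost without experiment 2 of SKO+Flag (0.35, adjusted p = 0.079) or of SKO+MEF2C (0.28, adjusted p = 0.16). In the compared groups alone both were lost (adjusted p = 0.065 at day 6 and 0.11 at day 10), and at day 6 the call was lost with median centring too (0.38, adjusted p = 0.067).

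Changes from day 6 to day 10 within each SKO group were tested as well. In SKO+Flag, Tnc fell by 0.76 (SE 0.06, adjusted p = 4.2e-05), Thy1 by 0.53 (SE 0.07, adjusted p = 0.0013) and Fn1 by 0.35 (SE 0.08, adjusted p = 0.023), and Ptn rose by 0.53 (SE 0.13, adjusted p = 0.033). These were 3 genes lower, where 4.33% of all genes were, and 1 higher, where 3.75% were. Postn differed by -0.61 (adjusted p = 0.069), by -0.97 without experiment 2 of SKO+Flag at day 10 (adjusted p = 0.0006), and by -0.25 without experiment 1 (adjusted p = 0.29). The Fn1 call was lost without experiment 1 (-0.34, adjusted p = 0.097) or 2 (-0.37, adjusted p = 0.091) of day 6 and without experiment 1 of day 10 (-0.33, adjusted p = 0.1). The Ptn call was lost without experiment 2 of day 6 (0.39, adjusted p = 0.23) or of day 10 (0.34, adjusted p = 0.15). In the compared groups alone neither held (adjusted p = 0.069 for Fn1 and 0.19 for Ptn).

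In SKO+HDAC7, 6 genes fell from day 6 to day 10, where 6.7% of all genes did, and Ptn rose by 0.84 (SE 0.13, adjusted p = 0.0015), where 7.86% did. Tnc fell by 1.12 (SE 0.06, adjusted p = 1.4e-06), Postn by 0.95 (SE 0.18, adjusted p = 0.005), Thy1 by 0.93 (SE 0.07, adjusted p = 1.5e-05), Svep1 by 0.44, Sparc by 0.34 and Fn1 by 0.29 (adjusted p = 0.0076, 0.0032 and 0.037). The Svep1 call was lost without experiment 2 of day 6 (-0.36, adjusted p = 0.063) or 1 of day 10 (-0.33, adjusted p = 0.067). That of Fn1 was lost without experiment 1 (-0.30, adjusted p = 0.13) or 2 (-0.28, adjusted p = 0.12) of day 6 and without experiment 2 of day 10 (-0.15, adjusted p = 0.27). It was also lost with quantile normalization, median centring and the compared groups alone (adjusted p = 0.063, 0.058 and 0.096). S100a4 differed by -0.14 and Vim by -0.10, neither called (adjusted p = 0.3 and 0.29).

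In SKO+MEF2C, Tnc alone of the 10 genes changed between the days, falling by 0.46 (SE 0.06, adjusted p = 0.0027), where 1.23% of all genes were called lower. No member was called higher by limma, and Ptn, at 0.50 (adjusted p = 0.075), was the 1 member higher at an unadjusted p under 0.05. Over all genes 1.85% were called higher, and 7.53% were higher at an unadjusted p under 0.05. In the compared groups alone Ptn was called (adjusted p = 0.012). Postn and Thy1 differed by 0.22 and -0.21 (adjusted p = 0.73 and 0.22). Fn1 and Vim differed by -0.10 each, Svep1 by 0.10, and Sparc, S100a4 and Dpt by less than 0.1.

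Lists of related genes were set beside the members. Of 24 other matricellular genes 23 were measured, and SKO+Flag was lower than GFP by at least 1 for 4 of them at day 6 and 12 at day 10, where 1.06% and 2.23% of all genes were, and higher by at least 1 for 2 and 0, where 2.92% and 3.48% of all genes were. For comparison, limma called 2.76% of all genes lower and 1.82% higher with HDAC7 at day 6, and 3.95% and 3.33% at day 10. With MEF2C it called 1.77% lower and 1.33% higher at day 6, and 3% and 4% at day 10. With HDAC7, 5 of the 23 fell and none rose at day 6, and 6 fell and 1 rose at day 10. With MEF2C, 3 rose and none fell at day 6, and 7 rose and 3 fell at day 10. At an unadjusted p under 0.05, 1 was higher with HDAC7 at day 6, as were 9.79% of all genes, and 2 were lower with MEF2C, as were 6.99%. The median difference at day 10 was -0.05 for HDAC7 and 0.15 for MEF2C, against 0.02 over all genes for each.

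Named by the size of their change at day 10, Igfbp7, a secreted binder of insulin-like growth factors, fell by 1.38 with HDAC7 (SE 0.06, adjusted p = 6.9e-07) and rose by 0.89 with MEF2C (SE 0.06, adjusted p = 9.4e-06). Thbs1, thrombospondin 1, an activator of latent TGF-beta, fell by 1.27 with HDAC7 (SE 0.05, adjusted p = 7.2e-07) and rose by 0.57 with MEF2C (SE 0.05, adjusted p = 0.00013). Ccn2, connective tissue growth factor, rose by 0.66 with MEF2C (SE 0.07, adjusted p = 0.00018) and fell by 0.99 with HDAC7 (SE 0.07, adjusted p = 1.3e-05). Mdk, midkine, the close relative of pleiotrophin, rose by 0.63 with HDAC7 (SE 0.09, adjusted p = 0.0018) and was at -0.05 with MEF2C (adjusted p = 0.87). Tnn, of the tenascin family, fell by 0.63 (SE 0.09, adjusted p = 0.0019) and Spock2, a proteoglycan of the SPARC family, by 0.56 (SE 0.07, adjusted p = 0.00079) with MEF2C. Neither was called with HDAC7. At day 10 with MEF2C, limma called none of the 10 members lower, and 3 of the 23 genes in this list. Over all genes 3% were, and no contrast is read from these counts.

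All 18 receptors of the members' proteins that were listed were measured. With HDAC7, 3 of the 18 fell and 1 rose at day 6, where 2.76% and 1.82% of all genes did, and 8 fell and 1 rose at day 10, where 3.95% and 3.33% did. With MEF2C, 1 rose and 1 fell at day 6, where 1.33% and 1.77% did, and 4 rose and 1 fell at day 10, where 4% and 3% did. Their day 10 medians were -0.26 and 0.15, against 0.02 over all genes for each. Ptprz1, the receptor-type phosphatase that pleiotrophin binds, fell by 0.97 with HDAC7 at day 10 (SE 0.13, adjusted p = 0.0014), while Ptn rose there. Itgav, an integrin subunit for fibronectin and periostin, fell by 0.70 (SE 0.08, adjusted p = 0.00031), and Sdc1, a syndecan, rose by 0.32 (SE 0.08, adjusted p = 0.034). With MEF2C at day 10, Itgav was called higher (0.35, SE 0.08, adjusted p = 0.021), and Ptprz1 and Sdc1 were not called. With MEF2C, Itga8 rose by 1.02 (SE 0.08, adjusted p = 4.1e-05) and Cd44, the hyaluronan receptor, by 0.63 (SE 0.08, adjusted p = 0.00089). Under HDAC7 at day 10, Itga8 was called lower (-0.59, SE 0.08, adjusted p = 0.0016) and Cd44 was not called. Itga4 fell by 0.71 with MEF2C (SE 0.11, adjusted p = 0.0031). It was also called lower with HDAC7 at day 10 (-0.58, SE 0.11, adjusted p = 0.011). From GFP to SKO+Flag, 3 receptors were higher by at least 1 and none lower at day 6, where 2.92% and 1.06% of all genes were, and 2 were higher and 2 lower at day 10, where 3.48% and 2.23% were. Itga4 (3.60 and 3.73) and Ptprz1 (2.66 and 2.44) were higher at both days.

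Of 23 other fibroblast identity genes, all measured, SKO+Flag was lower than GFP by at least 1 for 7 at day 6 and 11 at day 10, where 1.06% and 2.23% of all genes were, and higher for 1 and 2, where 2.92% and 3.48% were. With HDAC7, 2 fell and 3 rose at day 6, where 2.76% and 1.82% of all genes did, and 5 fell and 2 rose at day 10, where 3.95% and 3.33% did. With MEF2C, limma called 2 higher and none lower at day 6, where 1.33% and 1.77% of all genes were, and 8 higher and none lower at day 10, where 4% and 3% were. At an unadjusted p under 0.05, 2 were lower with MEF2C at day 6 and 1 at day 10, as were 6.99% and 7.53% of all genes. Col1a2, a chain of type I collagen, fell by 0.67 (SE 0.07, adjusted p = 0.0002) and Pdgfrb, a growth factor receptor of mesenchymal cells, by 0.62 (SE 0.07, adjusted p = 0.00042) with HDAC7 at day 10. Cdh2, N-cadherin, rose by 0.57 (SE 0.06, adjusted p = 0.00031) and Dcn, decorin, by 0.49 (SE 0.10, adjusted p = 0.017) there. Cdh2 was also called higher with MEF2C at day 10 (0.34, SE 0.06, adjusted p = 0.0084). Pdgfrb was called higher with MEF2C too (0.34, SE 0.07, adjusted p = 0.015), and Col1a2 and Dcn were not called with it. With MEF2C, Prrx2, a mesenchymal homeobox factor, rose by 0.82 (SE 0.09, adjusted p = 0.00026) and Cdh11, a mesenchymal cadherin, by 0.53 (SE 0.08, adjusted p = 0.0023). Under HDAC7 at day 10, Cdh11 was called lower (-0.49, SE 0.08, adjusted p = 0.0036) and Prrx2 was not called.

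Markers of other cell states moved with the groups. The mean log2 level of 6 epithelial markers (Epcam, Cdh1, Krt8, Krt18, Krt19 and Dsp) was 5.79 and 5.67 on the GFP arrays, with 2 of 6 above the array median. It was 6.21 to 6.27 in SKO+Flag at day 6 and 7.03 to 7.11 at day 10, 6.57 to 6.58 and then 7.84 to 7.95 in SKO+HDAC7, and 6.08 to 6.15 and then 6.41 to 6.50 in SKO+MEF2C, with 4 to 6 of them above it. The highest epithelial means were thus on the arrays with the lowest Postn, Tnc, Thy1 and Svep1. The mean of 5 myofibroblast and smooth muscle markers (Acta2, Tagln, Cnn1, Myh11 and Des) was 9.07 and 9.16 on the GFP arrays, 7.99 to 8.0 and then 6.98 to 7.06 in SKO+Flag, 7.44 to 7.50 and then 6.50 in SKO+HDAC7, and 8.50 to 8.58 and then 7.91 to 7.93 in SKO+MEF2C. The part of either in the members' differences was not tested.

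For each member, the 2 genes with the most similar values over the 14 arrays were taken from 2034 genes whose group means span at least 1. These correlations are a description over arrays that share their groups. For Thy1 they were Ncs1 (Pearson r 0.990) and Qsox1 (0.985), for Postn Cp (0.989) and Itga8 (0.974), for Fn1 Fhl2 and Nfil3 (0.983 each), and for Tnc Cyp1b1 (0.981) and Cpe (0.970). For Svep1 they were Colec12 (0.991) and Rspo2 (0.987), for Sparc Fzd8 (0.972) and Slc7a2 (0.947), for Vim Lipg (0.934) and Nqo1 (0.888), and for S100a4 Cavin4 (0.880) and Eno3 (0.865). Ptn was nearest to 2 matrix genes, Col3a1 (0.984), a fibrillar collagen, and Lum (0.975), lumican, and over the 12 SKO arrays alone r was 0.956 and 0.900. Dpt was nearest to Mfap4 (0.988) and Arsi (0.986), but over the SKO arrays alone r was 0.381 and -0.144, so that likeness lay between the GFP and the SKO arrays.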

How the data were processed

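RNA was measured on 14 whole-transcript arrays of Affymetrix, with feeder cells removed before RNA extraction, per the labels' protocols. The values as deposited are log2 expression of probe sets; the submitters' processing notes name RMA and Partek. The genome build and aligner were not given in the sources used here. A free-text description that is the same on every array gave no groups. Of 28815 probe sets, 21780 had 1 gene symbol, 1605 several and 5430 none here, and those with 1 gave 19935 genes, each by its probe set with the highest mean. Symbols were checked through Entrez IDs (21689 matched, 0 changed).

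One group-means model was fitted in R 4.3.3 with limma 3.58.1 to all 14 arrays (6 residual and 4.71 prior degrees of freedom), and the GFP groups of 1 array are assumed to vary like the others. The threshold for a call was an adjusted p (Benjamini-Hochberg, over all genes) under 0.05. No filter was set on dim probe sets. A level under its array's median was taken as not shown above background, and precision is limited by the number of arrays. The procedure was tested on simulated data.

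The members and lists were chosen with earlier results of these data known, so differences from GFP were not tested and the members' tests between SKO groups are descriptive. All members are named; from the other lists, up to 2 genes per direction with the largest called change at day 10. Differences between SKO groups that were not called and under 0.1 are given as a range or left out, and some larger ones that were not called are left out too. Alternatives were another prior, array weights, the compared groups alone, 2 scalings, the mean over probe sets, a level filter, experiment blocks and leaving out each array.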

Additional observations from a re-analysis of the deposited data

How the results depend on the processing

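Of 1209 member values recomputed under the alternatives, 1121 kept their direction and their side of the threshold (or, for those not tested, moved by less than the spread between arrays), 47 lost a call, 25 gained one, 4 turned sign and 12 moved. The other prior, the compared groups alone, the level filter and the experiment blocks leave a difference between group means as it is. The mean over probe sets does too, since each member had a single one. In these settings the direction could not turn, so the count of 1121 is no measure of robustness. The 6 HDAC7 calls at day 10 (7.27% of all genes called) became 3 in a fit to the compared groups alone (2.51%). Of the 6 MEF2C calls at day 10 (7.01% of all genes called), those of Svep1 and S100a4 were lost in such a fit (2.52%). The 1 HDAC7 call at day 6 (4.58% of all genes called) became 3 with an intensity-dependent robust prior (5.15%). It became 2 with quantile normalization (4.48%), with genes above the median level (9.5% of those genes), with a replicate block within each day (4.9%) and with the compared groups alone (1.88%). Leaving out single arrays gave 0 to 1. The 2 MEF2C calls at day 6 (3.1% of all genes called) became 5 with the robust prior (3.46%) and 1 with median centring (2.68%). In the compared groups alone (1.76% of all genes called) both were lost and Postn was gained, which left 1. Postn was also gained with array weights (3.38% of all genes called), with quantile normalization (3.36%) and with genes above the median level (7.19% of those genes). Each of the 2 calls was lost without any single array, so each needs all 4. The count for the change of the MEF2C difference between days was 0 to 1 over the arrays left out. From day 6 to day 10 in SKO+Flag, the 4 calls (8.08% of all genes called) became 2 with array weights (5.62%) and with the compared groups alone (2.53%). Some were lost when single arrays were left out. The robust prior (8.7% of all genes called) added calls of Postn and Vim in SKO+Flag, and genes above the median level (16.7% of those genes) added that of Postn. In SKO+MEF2C the 1 call (3.08% of all genes called) became 2 with the robust prior (3.42%), array weights (4.99%), genes above the median level (7.06% of those genes) and the compared groups alone (3.48%). Values that turned sign ran from -0.24 to 0.04 (Ptn, MEF2C, day 6), from -0.32 to 0.06 (Ptn, MEF2C, day 10), from -0.22 to 0.00 (Dpt, SKO+HDAC7 against SKO+MEF2C, day 10) and from -0.70 to 0.02 (Postn, change of the HDAC7 difference) over the arrays left out. The MEF2C difference of Vim at day 10 was 0.00 with quantile normalization, against 0.10, with its sign kept. Other than fewer arrays in the fits that leave some out, the cause was not tested.

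Experiment numbers were not taken as pairs in the main fit, and the labels do not say whether they pair the groups. Deviations of same-day, same-numbered arrays correlated at -0.09 to 0.18, with 3 of 6 over 0.1, and 5 of 6 groups lay nearer to their own number. These values do not settle whether the groups were paired, and a replicate block was fitted as an alternative. With a replicate block within each day, HDAC7 called 976 genes at day 6 and 1439 at day 10 (914 and 1450 without), and Postn was called at day 6 with HDAC7 (-0.56, adjusted p = 0.039) and with MEF2C (0.71, adjusted p = 0.022) and in SKO+Flag between days (-0.61, adjusted p = 0.019). The MEF2C call of S100a4 at day 6 (adjusted p = 0.051) and the calls between days of Ptn in SKO+Flag and of Fn1 in SKO+HDAC7 (adjusted p = 0.054 each) were lost.

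In the compared groups alone the counts over all genes fell from 914 to 375 (HDAC7, day 6), from 1450 to 501 (day 10), from 618 to 351 (MEF2C, day 6), from 1397 to 502 (day 10) and from 1610 to 504 (SKO+Flag, between days). Array weights raised that of SKO+MEF2C between days from 614 to 994. Leaving out 1 array gave 293 to 460 (HDAC7, day 6), 785 to 1484 (day 10), 157 to 268 (MEF2C, day 6) and 691 to 1421 (day 10), where the lower counts of day 10 came without a SKO+HDAC7 or SKO+MEF2C array. It took the 2525 genes of SKO+HDAC7 against SKO+MEF2C at day 6 to between 1313 and 1747, and the counts between days from 1610 to between 944 and 1905 (SKO+Flag), from 2902 to between 1571 and 2063 (SKO+HDAC7) and from 614 to between 250 and 317 (SKO+MEF2C), so the shares of all genes printed beside the members move with single arrays. The 25 and 17 genes whose HDAC7 and MEF2C differences changed between days became 483 and 213 without experiment 2 of SKO+Flag at day 10, and 2 and 1 in the compared groups alone.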
